A study of Mus musculus with 12 samples.

Results

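The annexins are a family of proteins that bind phosphatidylserine and other acidic phospholipids in the presence of calcium. Their transcripts were followed in macrophages from mice of 2 genotypes on 2 diets. The 8 genes described here, Anxa1, Anxa2, Anxa3, Anxa4, Anxa5, Anxa6, Anxa7 and Anxa11, were taken by symbol from a table of 12339 genes, and all 8 were in it. The 2 other annexins in the table, Anxa8 and Anxa9, are given only for comparison. The 4 groups were WT on chow, WT on a high-fat diet (HFD, called a Western diet in the labels), meKO on chow and meKO on HFD, with 3 libraries each. From the title of the series, which concerns the kinase PKC epsilon (gene Prkce) in myeloid cells, meKO is read as a myeloid knockout of Prkce. The labels do not name what drives the deletion. All groups received AAV8PCSK9 at 8 weeks of age, a vector that takes the LDL receptor off hepatocytes, so the chow groups carried it as well. The elicited macrophages were washed out of the peritoneum after sterile thioglycolate, 4 weeks after vector and diet began. The labels count 8 mice per genotype, 4 of them on HFD, and do not say whether each library is 1 mouse. The p-values therefore measure the spread between these libraries, which may in part be technical.

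Annexins share a conserved core of calcium-binding repeats and differ in their N-terminal tails, which bind partner proteins. Annexin A1 is released by myeloid cells and acts through formyl peptide receptors to dampen inflammation. Annexin A2 forms a tetramer with the S100 protein S100A10, which binds plasminogen at the cell surface. Annexin A5 is the phosphatidylserine probe used to stain apoptotic cells. Annexins A1 and A2 are known substrates of protein kinase C.

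The library totals over the listed genes ran from 25844958 to 37282772 counts. Levels are given as CPM, a library's counts of a gene over its TMM-scaled total. Prkce stood between 2.01 and 4.44 CPM in the 6 WT libraries and between 0.950 and 1.78 CPM in the 6 meKO libraries, without overlap, but did not pass in edgeR (log2 fold change -1.47 ± 0.31, adjusted p = 0.0794 on chow). The macrophage markers Adgre1 (513 to 697 CPM), Csf1r (473 to 844 CPM) and Cd68 (2538 to 3658 CPM) were high in all 12 libraries. Adgre1 and Csf1r were nonetheless lower on HFD in WT without overlap, where 39.3% of all genes did not overlap in either direction. Adgre1 was at 597 to 697 CPM on chow and 558 to 581 CPM on HFD, and Csf1r at 788 to 844 and 583 to 685 CPM. Cd68 overlapped between the diets in WT. Among the further macrophage markers, Itgam and Mertk had lower means on HFD in WT (991 to 674 and 109 to 69.3 CPM). Fcgr1 and Cd14 had higher means on HFD in WT (139 to 195 and 153 to 206 CPM). The means of Itgam, Mertk, Fcgr1 and Cd14 moved the same way in meKO. In meKO Adgre1 was again lower on HFD without overlap (597 to 676 and 513 to 586 CPM), while Csf1r and Cd68 overlapped. There 19.7% of all genes did not overlap. Lyz2, encoding lysozyme, ran from 30482 to 53835 CPM in WT and from 16293 to 21309 CPM in 5 meKO libraries, but was at 69.3 CPM in meKO chow replicate 2, while the other 7 macrophage markers summed to 5621 CPM there and 4969 to 6231 CPM elsewhere. Without that library the edgeR calls of annexins were 4 for diet in WT, 4 for diet averaged over genotypes and 0 in the other comparisons, Anxa7 in WT being the call lost (adjusted p = 0.0578). The share of all genes passing without it was not counted. Of 12 neutrophil markers 8 were listed, summing to 142 to 201 CPM over all libraries, and Ly6g, Ngp, Camp and Elane were not among the listed genes. The libraries also differed by the length of the transcripts they favoured. In WT chow replicates 1 and 2 the deviation of log2 CPM rose with length over genes (Spearman's rho 0.64 and 0.68), whereas rho lay between -0.46 and 0.13 in the other 10 libraries. The longest coding transcripts of the 8 annexins ran from 1447 bases (Anxa2) to 2904 bases (Anxa7), against a median of 3078 bases over all genes. Values corrected for length and GC content are given where they change a call of an annexin.

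The promoters of Anxa1 and Anxa2 are shown because these 2 genes had the largest diet effects, and that of Anxa5 because its transcript was the one most like Anxa1 over the libraries. By RefSeq (GRCm38.p6) the genes lie on several chromosomes, with Anxa1 (Entrez 16952) at chr19:20373434-20390671, Anxa2 (Entrez 12306) at chr9:69453683-69491792, Anxa3 (Entrez 11745) at chr5:96793385-96845968 and Anxa4 (Entrez 11746) at chr6:86736840-86793634. The others are Anxa5 (Entrez 11747) at chr3:36448923-36475887, Anxa6 (Entrez 11749) at chr11:54978953-55033471, Anxa7 (Entrez 11750) at chr14:20455261-20480133 and Anxa11 (Entrez 11744) at chr14:25842127-25886804, the last pair on the same chromosome. RefSeq promoters of this build matched 6 of the 8 genes. The 250 bases before each promoter's start were searched on both strands for 6 motifs. For Anxa4 (chr6:86793585-86793834) and Anxa11 (chr14:25841905-25842154) the window reaches into the gene span given above. In these genes it therefore does not end at the outermost start. These were the AP-1 motif, written TGANTCA, and the cyclic AMP response element, written TGACGTCA. The general promoter motifs were the GC box, written GGGCGG, the CCAAT box, which is read as its own name, and the TATA box, written TATAAA. The motif of the macrophage factor PU.1 was written GAGGAAGT. The 3 sequences printed are those of Anxa1 (chr19:20390672-20390921, minus strand), Anxa2 (chr9:69453433-69453682, plus strand) and Anxa5 (chr3:36475888-36476137, minus strand), 5′ to 3′ toward the start, with matches to any of these motifs in capitals; the Anxa5 window has none.
Anxa1: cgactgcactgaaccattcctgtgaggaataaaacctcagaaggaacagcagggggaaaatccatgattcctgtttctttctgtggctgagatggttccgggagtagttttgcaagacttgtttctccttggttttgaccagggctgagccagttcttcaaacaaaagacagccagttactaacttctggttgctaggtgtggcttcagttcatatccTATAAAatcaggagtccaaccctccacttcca
Anxa2: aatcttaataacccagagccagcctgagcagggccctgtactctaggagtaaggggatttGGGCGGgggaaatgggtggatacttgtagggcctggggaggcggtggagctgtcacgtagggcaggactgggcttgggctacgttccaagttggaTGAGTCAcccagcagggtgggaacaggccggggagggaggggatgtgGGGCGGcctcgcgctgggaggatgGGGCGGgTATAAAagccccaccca
Anxa5: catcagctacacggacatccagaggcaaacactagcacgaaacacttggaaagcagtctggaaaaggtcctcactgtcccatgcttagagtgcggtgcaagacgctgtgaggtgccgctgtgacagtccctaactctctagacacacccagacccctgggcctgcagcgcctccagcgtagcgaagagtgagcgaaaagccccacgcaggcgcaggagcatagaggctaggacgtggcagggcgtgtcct

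The Anxa1 window held a TATA box whose first base lay at -32, counted back from the start, and no other match. The Anxa2 window held a TATA box at -17, GC boxes at -190, -48 and -24 and an AP-1 match, TGAGTCA, at -95, and none of these overlapped. The windows of Anxa4 and Anxa5 held none of the 6 motifs, that of Anxa7 held 1 GC box and that of Anxa11 held 3. Over 27025 promoters of the same length 3504 held the TATA motif, while 6.87% held the AP-1 motif, 32.9% the GC box, 34.5% the CCAAT box, 2.44% the PU.1 motif and 1.62% the cyclic AMP response element. The GC content of the windows was 46.0% for Anxa1, 62.4% for Anxa2 and 58.8% for Anxa5, against a median of 52% over all promoters. A match is a run of letters and not a measured binding site.

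Per kilobase of transcript, Anxa1 and Anxa2 were the most abundant annexins. In WT chow the level was 1170 ± 101 CPM per kilobase for Anxa1 (SD, n = 3) and 915 ± 52.4 for Anxa2. Anxa5 followed at 508 (range 498 to 523), Anxa4 at 349 ± 36.6 and Anxa3 at 199 ± 26.5. Anxa6 (90.4 ± 4.89), Anxa7 (81.1 ± 2.97) and Anxa11 (16.5 ± 1.19) were lowest. No neighbours in this order overlapped in WT chow. In the other 3 groups the ranges of Anxa1 and Anxa2 overlapped, so their order did not hold beyond the spread. Per kilobase, Anxa6 and Anxa7 changed places between the WT diets. Anxa7 ran from 92.3 to 102 CPM per kilobase in WT HFD, above Anxa6 at 79.5 to 90.3. In both meKO groups their ranges overlapped. Before division by length they also overlapped in WT chow, with Anxa7 at 227 to 244 CPM and Anxa6 at 218 to 239 CPM. The levels per kilobase rest on the longest coding transcript of each gene.

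Together the 8 genes took 0.595 ± 0.0151% of all counts in WT chow (SD, n = 3), 0.857 ± 0.0477% in WT HFD, 0.714 ± 0.0696% in meKO chow and 0.948 ± 0.0701% in meKO HFD. Anxa1 and Anxa2 made up 57.7 ± 0.822% of the annexin counts in WT chow and 66.0 ± 0.687% in WT HFD. In meKO the same share was 60.0 ± 3.09% on chow and 67.7 ± 1.82% on HFD.

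**Figure D1:**
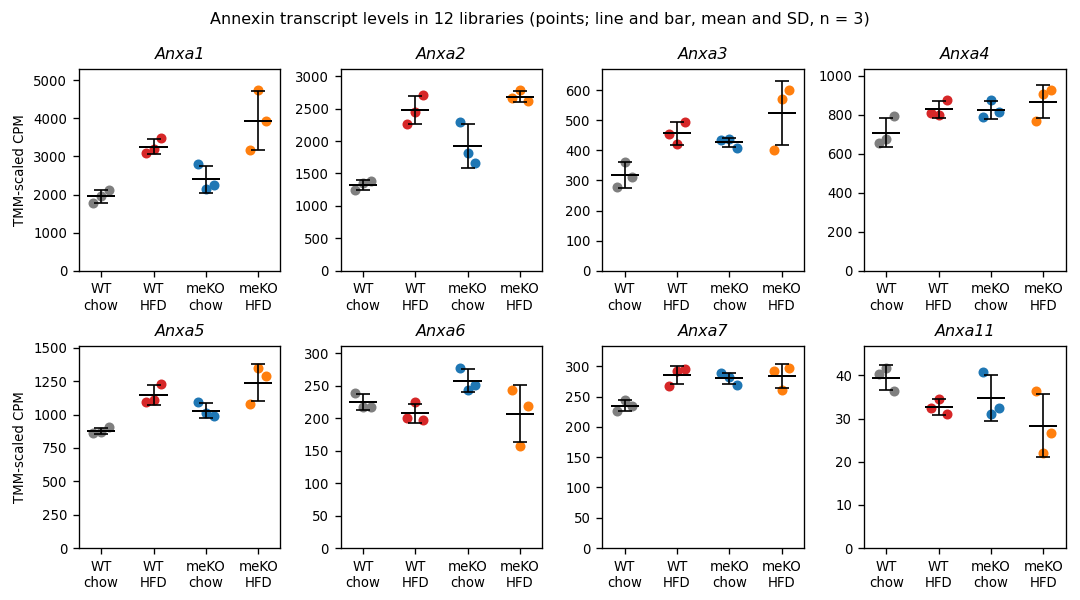
TMM-scaled CPM (y axis, starting at 0) of the 8 annexins in each library (points) by group (x axis), with the mean and SD of 3 libraries. Anxa1 and Anxa2 sit higher on HFD than on chow in both genotypes, whereas Anxa6 and Anxa11 do not.

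The first comparison asked what the diet changed in WT macrophages. On HFD 5 of the 8 annexins rose (Anxa1, Anxa2, Anxa3, Anxa5 and Anxa7) and 0 fell, where 21.3% of all genes passed in either direction and 9.50% passed as higher. The median log2 fold change of the 8 was 0.33, against -0.03 over all genes. The groups did not overlap for 6 annexins in the upward and 1 in the downward direction, against 39.3% of all genes in either direction.

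Anxa2, the partner of S100A10, had the largest rise. WT chow libraries held 1240, 1349 and 1385 CPM, and WT HFD libraries 2270, 2455 and 2711 CPM. Every HFD library lay above every chow library, and the log2 fold change was 0.90 ± 0.13 (SE; edgeR adjusted p = 0.00308), a 1.87-fold rise. It passed in all 22 alternatives.

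Anxa1, the mediator that acts on formyl peptide receptors, measured 1783, 1973 and 2119 CPM on chow against 3081, 3206 and 3477 CPM on HFD in WT. The groups were again fully apart, with a log2 fold change of 0.73 ± 0.15 (edgeR adjusted p = 0.0123). The call was lost without WT chow replicate 1 (edgeR adjusted p = 0.0711), without WT HFD replicate 3 (0.0693) and after the length and GC correction (log2 fold change 0.39, adjusted p = 0.0576), and over all alternatives the adjusted p lay between 0.000127 and 0.0711.

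Anxa5, Anxa3 and Anxa7 rose by less. Anxa5 was at 862, 870 and 905 CPM in WT chow and 1097, 1112 and 1228 CPM in WT HFD (log2 fold change 0.38 ± 0.11, edgeR adjusted p = 0.0274). Anxa3, which is also abundant in neutrophils, was at 278, 362 and 313 CPM and at 455, 420 and 495 CPM (0.52 ± 0.15, adjusted p = 0.0269). Anxa7, which binds the penta-EF-hand protein sorcin, was at 227, 244 and 235 CPM and at 268, 293 and 295 CPM (0.28 ± 0.09, adjusted p = 0.048). The chow and HFD libraries did not overlap for these 3 genes. Anxa3 and Anxa5 lost the call without any 1 of WT chow replicates 1 and 2 and WT HFD replicates 1 and 3, with edgeR adjusted p from 0.0515 to 0.116. After the length and GC correction their log2 fold changes were 0.21 (adjusted p = 0.266, from 0.0025 over its alternatives) and 0.17 (0.167, from 0.00145). Anxa7, the longest of the 8, was 0.30 after the correction (edgeR adjusted p = 0.0289). Its call was lost in 11 of 22 alternatives, among them library totals (log2 fold change 0.19, adjusted p = 0.151, between 0.00589 and 0.155 over its alternatives). Leaving out any 1 library other than WT chow replicate 3 and meKO HFD replicates 1 and 2 also lost it.

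The remaining 3 annexins did not pass in WT in edgeR. Voom with library quality weights called 7 of the 8, where it called 52.0% of all genes, with Anxa4 (adjusted p = 0.0091) and Anxa11 (0.0371) among them. Anxa4 also passed in edgeR without WT chow replicate 3 (0.0332; between 0.0091 and 0.934 over its alternatives), and Anxa11 lay between 0.0371 and 0.45. Anxa4 was at 654, 677 and 793 CPM on chow and 806, 799 and 876 CPM on HFD (log2 fold change 0.22 ± 0.11, edgeR adjusted p = 0.147). Anxa6, the annexin with a duplicated core, was at 239, 218 and 218 CPM and at 200, 225 and 198 CPM (-0.12 ± 0.14, adjusted p = 0.548). Anxa11 was the lowest of the 8 in every library, at 40.3, 41.8 and 36.3 CPM and at 32.4, 34.6 and 31.0 CPM (-0.27 ± 0.16, adjusted p = 0.224). The chow and HFD ranges of Anxa6 overlapped, while those of Anxa4 and Anxa11 did not. In GENCODE the exons of Anxa11 overlap those of Anxa11os on the opposite strand. Anxa2 and Anxa4 each overlap a gene model on the opposite strand and Anxa3 overlaps one on its own strand, and these models are not in the table. How strand was treated in counting is not given in the sources used here, so reads of the opposite-strand pairs may be mixed. For Anxa3 a strand setting could not keep the reads apart.

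**Figure D2:**
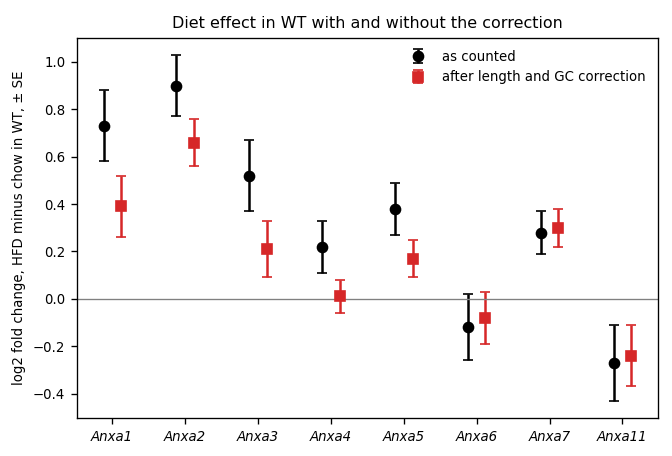
Log2 fold change on HFD in WT (y axis, ± SE) of each annexin as counted (circles) and after correcting for GC content and length (squares). Anxa1, Anxa2, Anxa3, Anxa4 and Anxa5 move toward 0, with Anxa2 going from 0.90 to 0.66, while Anxa7 goes from 0.28 to 0.30.

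With the correction 2 annexins were called in WT, Anxa2 (log2 fold change 0.66 ± 0.10, edgeR adjusted p = 0.00704) and Anxa7. The number called was 1 without WT chow replicate 1 and without WT HFD replicate 3, 2 without WT chow replicate 2 and without WT HFD replicate 1, and 6 without WT chow replicate 3. How many of all genes passed with the correction or in these runs was not counted, so these numbers have no share to stand beside. Markers of other cells differed with diet as well. The summed mesothelium and fibroblast markers (14 of 15 listed) ran from 53.9 to 95.0 CPM in WT chow and from 99.2 to 145 CPM in WT HFD. The 9 resident large peritoneal macrophage markers summed to 271 to 808 CPM and 1098 to 1768 CPM, most of it Cd5l. Without Cd5l they were 116 to 318 CPM and 186 to 281 CPM. The neutrophil markers summed to 157 to 201 CPM in WT chow and 142 to 151 CPM in WT HFD. That sum hides opposite directions. Csf3r (means of 110 CPM on chow and 72.8 CPM on HFD) and Retnlg (8.73 and 4.50) were lower on HFD. Means of the other listed neutrophil markers were higher on HFD, among them S100a8 (10.4 and 17.5) and Mmp8 (44.0 and 48.3). B cell markers (8 of 9 listed) summed to 205 to 259 CPM against 117 to 142 CPM, and dendritic cell markers (7 of 7) to 33.0 to 53.0 CPM against 19.0 to 28.5 CPM, both lower on HFD without overlap. Eosinophil, mast cell, T and NK cell and red blood cell markers overlapped between the diets in WT. The part of these cells in the annexin values was not tested, and more cells of a type cannot be told apart from more RNA per cell in bulk libraries.

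In meKO macrophages the same diet comparison called 0 of the 8 annexins with edgeR, where 0.105% of all genes passed. Of the 8, 4 had an unadjusted p under 0.05 (15.9% of all genes did), DESeq2 called 2 (1.87% of the genes it adjusted), voom with library quality weights 2 (3.23% of all genes) and limma-voom 0 (0.0729%). Anxa1 was at 2790, 2133 and 2263 CPM in meKO chow and 3165, 4730 and 3926 CPM in meKO HFD, without overlap. Its log2 fold change was 0.72 ± 0.15 (edgeR adjusted p = 0.0879), close to the 0.73 in WT. Without meKO HFD replicate 1 it passed (0.85, adjusted p = 0.0197, between 0.00131 and 0.34 over its alternatives). Anxa2 was at 2297, 1815 and 1655 CPM and at 2662, 2780 and 2614 CPM, also without overlap (0.48 ± 0.13, edgeR adjusted p = 0.143). DESeq2 called Anxa1 and Anxa2 in meKO, with adjusted p of 0.00131 and 0.0183 (up to 0.475 over the alternatives for Anxa2).

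The other annexins were less separated in meKO. Anxa5 was at 1091, 1009 and 989 CPM and at 1080, 1351 and 1287 CPM (log2 fold change 0.27 ± 0.11, edgeR adjusted p = 0.276). Anxa3 was at 434, 437 and 408 CPM and at 401, 569 and 599 CPM (0.29 ± 0.15, adjusted p = 0.337). In both genes meKO HFD replicate 1 lay within or below the chow range and the other 2 HFD libraries above it. Anxa6 was at 278, 244 and 252 CPM and at 243, 158 and 219 CPM, the HFD libraries all below the chow libraries (-0.32 ± 0.14, adjusted p = 0.293). Anxa11 gave -0.29 ± 0.16, with overlap, and Anxa4 (0.07 ± 0.11) and Anxa7 (0.02 ± 0.09) were closest to 0. Under library totals the value of Anxa7 turned to -0.01, and after the length and GC correction that of Anxa4 to -0.04. In all, 2 annexins did not overlap upward and 1 downward, against 19.7% of all genes in either direction. The summed mesothelium and fibroblast markers ran from 54.3 to 99.4 CPM in meKO chow and from 116 to 151 CPM in meKO HFD. The resident macrophage markers summed to 522 to 1090 CPM and 662 to 1600 CPM. T and NK cell markers (10 of 11 listed) summed to 20.3 to 21.4 CPM in meKO chow and 29.2 to 36.1 CPM in meKO HFD, without overlap, and the part of any of these cells in these values was not tested.

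Averaged over genotypes, diet called 4 annexins, all higher on HFD, where 30.2% of all genes passed and 14.9% passed as higher. These were Anxa1 (log2 fold change 0.73 ± 0.11, edgeR adjusted p = 0.0022), Anxa2 (0.69 ± 0.09, 0.00109), Anxa5 (0.32 ± 0.08, 0.0102) and Anxa3 (0.41 ± 0.10, 0.0133). Anxa1 and Anxa2 passed in all 21 alternatives. Voom with library quality weights called all 8 annexins here, where it called 51.0% of all genes. Anxa3 and Anxa5 were lost after the length and GC correction only, with log2 fold changes of 0.16 each (adjusted p = 0.19 and 0.0545; lowest over the alternatives 0.000959 and 0.00021). Anxa7 did not pass as counted (0.15 ± 0.07, edgeR adjusted p = 0.0984) but did after the correction (0.16, 0.0421). Its adjusted p lay between 0.0205 and 0.323 over its alternatives. Anxa11 (-0.28 ± 0.12, edgeR adjusted p = 0.0768) and Anxa6 (-0.22 ± 0.10, 0.0993) did not pass. The median of the 8 was 0.24, against -0.03 over all genes.

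**Figure D3:**
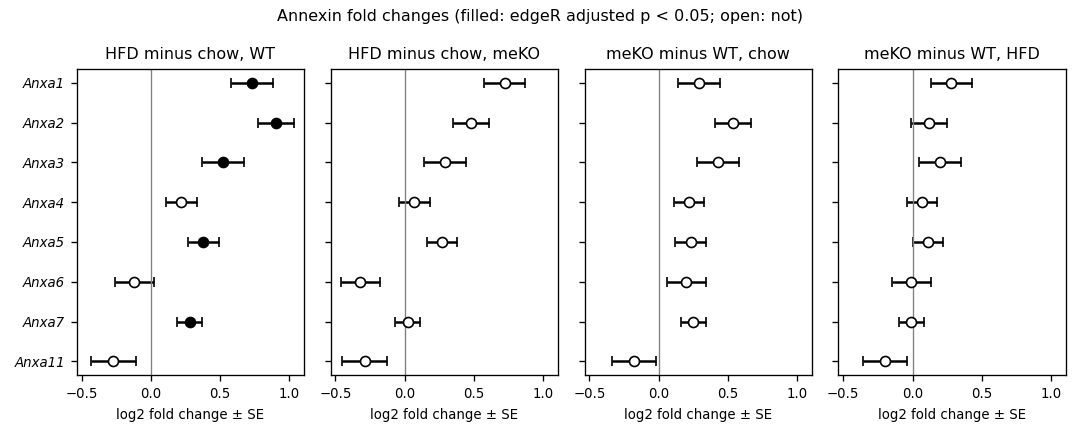
Log2 fold changes (x axis, ± SE) of the 8 annexins (rows) for diet in each genotype and for genotype on each diet; filled points passed an edgeR adjusted p of 0.05. The 5 filled points are all in the diet comparison in WT, and the comparisons beside it share libraries with it.

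On chow, the annexins in meKO were compared with those in WT. EdgeR called 0 of the 8 annexins, where 0.0810% of all genes passed. Of the 8, 3 had an unadjusted p under 0.05 (19.8% of all genes did), DESeq2 called 2 (5.05% of the genes it adjusted), limma-voom 0 (0.0162% of all genes) and voom with library quality weights 6 (32.8%). The meKO chow libraries lay above the WT chow libraries without overlap for 6 annexins and below for 0, against 17.1% of all genes in either direction. Anxa2 had the largest value, with means on chow of 1325 ± 75.8 CPM for WT against 1922 ± 334 CPM for meKO (log2 fold change 0.54 ± 0.13, edgeR adjusted p = 0.0846). Without WT chow replicate 3 it passed (0.58, adjusted p = 0.0161, between 0.00382 and 0.352 over its alternatives). Anxa3 (0.43 ± 0.15, adjusted p = 0.152), Anxa1 (0.29 ± 0.15, 0.283) and Anxa7 (0.25 ± 0.09, 0.174) followed, and Anxa11 was the only one of the 8 below 0 (-0.18 ± 0.16, 0.522). This comparison and the diet comparison in WT share the 3 WT chow libraries, whose group means were the lowest of the 4 for 6 of the 8 annexins. After the length and GC correction Anxa2 was 0.35 (edgeR adjusted p = 0.172) and Anxa1 0.08 (0.826, the highest over its alternatives, which began at 0.0451).

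On HFD none of the 8 annexins separated the genotypes. EdgeR called 0 of the 8, where 0.0810% of all genes passed, and 0 had an unadjusted p under 0.05 (4.56% of all genes did). DESeq2 (0.430% of all genes), limma-voom (0.0405%) and voom with library quality weights (1.04%) also called 0. The groups overlapped for all 8 annexins, where 10.3% of all genes did not overlap. Anxa1 averaged 3255 ± 203 CPM for WT against 3940 ± 783 CPM for meKO (log2 fold change 0.28 ± 0.15, edgeR adjusted p = 0.999). Anxa2 averaged 2479 ± 222 CPM and 2685 ± 85.4 CPM (0.12 ± 0.13, adjusted p = 0.999). Anxa6 and Anxa7 were both at -0.01, with SE of 0.14 and 0.09, and changed sign between alternatives. Averaged over diets, genotype called 0 annexins with edgeR, where 0.170% of all genes passed, and 4 had an unadjusted p under 0.05 (17.7% of all genes did). DESeq2 called 1 (3.03% of the genes it adjusted), limma-voom 0 (0.162% of all genes) and voom with library quality weights 7 (31.1%). The largest averaged value was that of Anxa2 (0.33 ± 0.09, edgeR adjusted p = 0.149).

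The interaction tests whether diet acted differently in the 2 genotypes. EdgeR called 0 of the 8, where 0.0162% of all genes passed, and 1 had an unadjusted p under 0.05 (6.13% of all genes did). DESeq2 (0.122% of all genes), limma-voom (0.0162%) and voom with library quality weights (2.39%) also called 0. All 8 values were below 0, with a median of -0.18, against 0.02 over all genes, and the WT chow libraries enter every one. Anxa2 gave -0.42 ± 0.18 (edgeR adjusted p = 0.791), Anxa7 -0.26 ± 0.13 (0.797) and Anxa1 -0.01 ± 0.21 (0.985). The value of Anxa1 was 0.03 under library totals and 0.13 after the length and GC correction, and that of Anxa11 (-0.02 ± 0.23) was 0.04 under library totals. A missed threshold does not show that the diet effects were alike.

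The partner genes were then examined. S100a10, whose protein forms the tetramer with annexin A2, rose with Anxa2. In WT it went from 264, 280 and 345 CPM on chow to 547, 556 and 683 CPM on HFD. The meKO libraries held 557, 462 and 351 CPM on chow and 583, 715 and 585 CPM on HFD. On HFD it rose in WT without overlap (log2 fold change 1.01 ± 0.17, edgeR adjusted p = 0.00647), and in meKO it gave 0.46 ± 0.17 (0.252), also without overlap. The difference in log2 CPM between S100a10 and Anxa2 was -2.17 ± 0.14 in WT chow (SD, n = 3), -2.06 ± 0.08 in WT HFD, -2.09 ± 0.14 in meKO chow and -2.10 ± 0.13 in meKO HFD, and the ranges of all 4 groups overlapped.

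**Figure D4:**
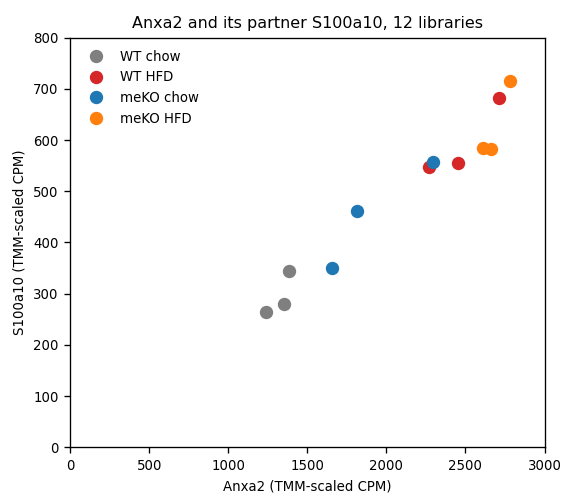
S100a10 against Anxa2 in 12 libraries (both axes TMM-scaled CPM from 0, colour by group). The WT chow libraries lie lowest on both axes, and meKO chow replicate 1, at 2297 CPM of Anxa2 and 557 CPM of S100a10, lies among the HFD libraries.

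Among 12329 genes outside the annexins, S100a10 had one of the highest values of Pearson's r with Anxa2 in log2 CPM over the 12 libraries (r = 0.978, Spearman's rho = 0.99), rank 3 after Uqcrc1 (0.984) and Gpx1 (0.983). After the length and GC correction it was again at rank 3 (r = 0.955). S100a11, whose protein binds annexin A1, was at rank 2383 for Anxa1 (r = 0.704), and its r was -0.325 after the correction. It was at 75.7 ± 3.42 CPM in WT chow and 102 ± 14.4 CPM in WT HFD (log2 fold change 0.43 ± 0.12, edgeR adjusted p = 0.031), and the value turned to -0.20 after the correction (adjusted p = 0.58, from 0.00553 over its alternatives). Its call was also lost under library totals and without any 1 of WT chow replicates 1 and 2 and WT HFD replicates 2 and 3. These correlations are descriptions: the points share library, depth and the length trend, and the group differences enter them.

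Genes among the 3 most like each annexin by r over the 12 libraries were Cfap126, Timm9 and Tmem202 for Anxa1 (0.958 to 0.968), Gnptg and Id2 for Anxa3 (0.948 and 0.947) and Atp6ap2, Emc6 and Aktip for Anxa4 (0.964 to 0.980). They were Etfb, Hspbp1 and Cdk4 for Anxa5 (0.972 to 0.978), B3gnt8, Septin9 and Dlgap4 for Anxa6 (0.933 to 0.938), Ugp2, 4732491K20Rik and Pex16 for Anxa7 (0.915 to 0.936) and Ppp1r12c, Csk and Adam15 for Anxa11 (0.969 to 0.978). Among the annexins themselves Anxa1 and Anxa5 were most alike (r = 0.97), whereas Anxa11 had an r of -0.84 with Anxa4 and -0.75 with Anxa1, and 0.71 with Anxa6.

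Of 8 listed S100 and related partners, 7 rose on HFD in WT and 0 fell, with a median log2 fold change of 0.88, where 9.50% of all genes rose, 21.3% passed in either direction and the median was -0.03. S100a6 rose from 296 ± 54.7 to 600 ± 27.4 CPM (1.02 ± 0.16, edgeR adjusted p = 0.00599) and S100a4 from 417 ± 96.5 to 1010 ± 104 CPM (1.28 ± 0.22, 0.00754). After the length and GC correction 4 of the 7 still passed, among them S100a4, S100a6 and S100a10 at log2 fold changes of 0.66, 0.59 and 0.49. How many of all genes passed with the correction was not counted, so this number is no result about the list. The 7 that rose were all S100 genes, and Ahnak (-0.26) did not pass. S100a16, among the 7, averaged only 0.300 ± 0.229 CPM in WT chow and 0.963 ± 0.140 CPM in WT HFD. Ahnak and S100a16 are named after their values were seen. The transcripts of S100a10 (685 bases) and S100a11 (511 bases) are shorter than any of the 8 annexins. In meKO 0 of the 8 partners passed in edgeR (0.105% of all genes did) or DESeq2 (1.87% of the genes it adjusted). The count was also 0 in limma-voom (0.0729% of all genes) and voom with library quality weights (3.23%). These counts are near the shares over all genes and so no result about the list. In edgeR 4 had an unadjusted p under 0.05 (15.9% of all genes did), and the median was 0.38, against -0.01 over all genes.

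Of the formyl peptide receptor list (9 of 10 genes listed, with glucocorticoid-responsive genes beside the receptors), 1 rose on HFD in WT and 0 fell. Over all genes 9.50% rose and 21.3% passed in either direction, so the count is no result about the list. The gene was Dusp1, a phosphatase of MAP kinases, at 21.2 ± 3.91 and 43.7 ± 12.6 CPM (1.04 ± 0.27, edgeR adjusted p = 0.0218, and 0.0655 after the length and GC correction). Neither Fpr1 nor Fpr2 passed, and Fpr3 was not among the listed genes. Of the 13 penta-EF-hand and ESCRT genes, which include partners of Anxa7 and Anxa11, 6 rose and 2 fell, where 9.50% of all genes rose and 21.3% passed in either direction. Pdcd6, encoding the calcium sensor ALG-2, gave 0.45 ± 0.10 (edgeR adjusted p = 0.0155), and the ESCRT-III genes Chmp2a and Chmp3 gave 0.66 ± 0.16 (0.0205) and 0.44 ± 0.12 (0.0246). The 2 that fell were Pdcd6ip (-0.46 ± 0.15, 0.0478) and Sec31a (-0.53 ± 0.18, 0.0497), named after their values were seen. After the correction only Chmp2a and Chmp3 of the called genes still passed, and the share of all genes passing with it was not counted. Pdcd6 (0.13, edgeR adjusted p = 0.231) and the other genes that rose did not. Neither did the 2 that fell, Pdcd6ip (-0.14, 0.358) and Sec31a (-0.23, 0.185).

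Of 10 listed membrane repair genes 0 rose and 2 fell in WT, a share near the 21.3% of all genes that passed and so no result about the list. These were Ehd4 (-0.65 ± 0.13, edgeR adjusted p = 0.0118) and the protease gene Capn1 (-0.52 ± 0.15, 0.0316). Of 14 scramblase and flippase genes, whose products set phosphatidylserine on the cell surface, 1 rose and 2 fell, again near the 21.3% over all genes. They were Plscr1 (0.51 ± 0.15, edgeR adjusted p = 0.029), the scramblase gene Ano6 (-0.48 ± 0.13, 0.0266) and Tmem63b (-0.53 ± 0.16, 0.0318). None of these 3 passed after the correction (adjusted p = 0.111, 0.159 and 0.0785), and of the repair genes Ehd4 did (0.0125). Of 7 listed plasminogen system genes 3 rose and 0 fell, where 9.50% of all genes rose and 21.3% passed in either direction. Plaur, the urokinase receptor gene, gave 0.47 ± 0.12 (edgeR adjusted p = 0.0205) and Eno1, whose product also binds plasminogen, 0.50 ± 0.17 (0.0469). Neither Plaur nor Eno1 passed after the correction (adjusted p = 0.0805 and 0.0711). Over the 61 genes of the 6 lists edgeR called 0 for diet in meKO, where 12 had an unadjusted p under 0.05 (15.9% of all genes did), and DESeq2 called 2 (1.87%), limma-voom 0 (0.0729%) and voom with library quality weights 3 (3.23%). For genotype on chow edgeR called 0 of the 61, where 19 had an unadjusted p under 0.05 (19.8% of all genes did), and DESeq2 called 4 (5.05%), limma-voom 0 (0.0162%) and the weighted voom 31 (32.8%). On HFD the genotype comparison called 0 in edgeR, where 4 had an unadjusted p under 0.05 (4.56% of all genes did), 0 in DESeq2 (0.430%) and limma-voom (0.0405%), and 1 with the weighted voom (1.04%). Averaged over genotypes, 3 of the 7 plasminogen system genes rose on HFD and 0 fell. Over all genes 14.9% rose and 30.2% passed in either direction. Plat, encoding tissue plasminogen activator, was among the 3 (1.05 ± 0.26, edgeR adjusted p = 0.0128). Its level was low, with means from 1.10 CPM in WT chow to 3.52 CPM in meKO HFD.

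The 2 annexins outside the list were low. Anxa8 had 8 to 51 counts per library and averaged 0.299 ± 0.0378 CPM in WT chow and 0.935 ± 0.521 CPM in WT HFD (log2 fold change 1.63 ± 0.52, edgeR adjusted p = 0.0403, passing in 14 of 21 alternatives and lost without WT HFD replicate 1, without WT HFD replicate 3, without WT chow replicate 1, without WT chow replicate 2 and without WT chow replicate 3), beside the higher mesothelium and fibroblast markers on HFD, whose part was not tested. Anxa9 ran from 6.95 to 9.26 CPM over the 12 libraries, and its value on HFD in WT was 0.29 ± 0.13 (edgeR adjusted p = 0.119).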

How the data were processed

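RNA counts of 12 libraries, 3 in each of 4 groups taken from the sample titles, were analysed. The authors deposited whole-number counts per gene, unnormalized, with Entrez identifiers; mm10 and DESeq2 are named per the submitters' processing notes, RNA was taken up in Trizol and libraries were TruSeq per the labels' protocols, and the aligner, counting tool and strand setting are not given in the sources used here. Of 12339 genes, 186 had no symbol (0.44% of counts). The members and lists were chosen with earlier results of these data known. Counts of all genes were tested with edgeR 4.0.16 (R 4.3.3): TMM, filterByExpr, robust quasi-likelihood F tests on 4 group means over 12 libraries, Benjamini-Hochberg over all genes, two-sided, called under 0.05; recovery of known changes was tested on simulated data. SE is the fold change over the square root of F. A permutation over 3 and 3 libraries cannot give a p under 0.1. Lengths and GC came from the longest coding GENCODE M21 transcript (93.5% of genes); for the correction, each library's deviation was fitted by splines on both and entered as offsets. Alternatives included DESeq2 1.42.0, limma-voom 3.58.1 with and without library quality weights, other scalings and filters, and each library left out. Named were the 8 annexins, S100a10, S100a11, Prkce, up to 3 called genes per list and contrast by p, and the 3 genes with the highest r to each annexin; Anxa8, Anxa9 and single marker genes are named as described. Library totals of 25844958 to 37282772 counts gave 579 to 124003 counts per member and library. Values of 2 genes that this rule names are not reported here.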

Additional observations from a re-analysis of the deposited data

How the results depend on the processing

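The 9 calls of annexins (5 for diet in WT, 4 for diet averaged over genotypes) kept their direction in every alternative run. For diet in WT the count of 5 became 2 after the length and GC correction, and ran from 1 to 6 when single libraries were left out. How many of all genes passed with the correction or with a library left out was not counted. Voom with library quality weights called 6 annexins for genotype on chow, 2 for diet in meKO, 7 for genotype averaged over diets and 8 for diet averaged over genotypes; DESeq2 called 2, 2 and 1 in the first 3 of these. In those 3 comparisons, where edgeR called 0, leaving out single libraries gave 0 to 1 calls. The cause was not tested.

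Signs turned for 7 uncalled log2 fold changes, none above 0.15 in size. Library totals turned the interaction of Anxa1 to 0.03 and of Anxa11 to 0.04, and the diet effect of Anxa7 in meKO to -0.01. The length and GC correction turned the interaction of Anxa1 to 0.13 and the diet effect of Anxa4 to -0.04 in meKO and -0.02 averaged. Voom with library quality weights turned the genotype effect on HFD to 0.03 for Anxa6 and 0.05 for Anxa7. With single libraries left out, the interaction ran from -0.16 to 0.12 for Anxa1 and -0.24 to 0.14 for Anxa11, the genotype effect on HFD from -0.14 to 0.14 for Anxa6 and -0.05 to 0.04 for Anxa7, and the diet effect in meKO from -0.02 to 0.08 for Anxa7. Of 1208 member values under alternatives, 1122 kept their sign and side of the threshold, 35 came to pass and 26 ceased to pass. No paired analysis was made because the labels give no pairing of libraries. They give no replicate numbers either, and those used here follow the order of the sample titles within each group.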
